A study of Mus with 17 samples.

Results

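The transcripts described here encode proteins that draw leukocytes into the vessel wall: the chemokine Ccl2, the cytokines Il6, Il1b and Tnf, and the adhesion molecules Vcam1 and Icam1. They were chosen by 6 Ensembl transcript identifiers, and 4 of the 6 were listed among the 39614 transcripts that every sample file holds. Those 4 were Ccl2 (ENSMUST00000000193), Vcam1 (ENSMUST00000029574), Icam1 (ENSMUST00000086399) and Il1b (ENSMUST00000028881). Il6 (ENSMUST00000026845) and Tnf (ENSMUST00000025263) were not listed in either set of files, so no value is given for them. Every transcript listed for Control and AngII had a mean signal of at least 0.5 in 1 of these groups. Whether that minimum is why Il6 and Tnf were not listed was not tested. The gene names come from the selection rule, since the files hold identifiers alone, and each name stands for 1 transcript of its gene and not for the gene's whole output.

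Abdominal aorta was taken from wild-type C57BL/6 mice of 3 groups. Control mice (n = 5) were given saline and double distilled water. AngII mice (n = 6) were given angiotensin II at 500 ng/kg/min and double distilled water, and the mice of the third group (n = 6) the same dose of angiotensin II with neferine, an alkaloid of lotus seeds, at 1 mg/kg/day. Treatment lasted 42 days, and the study asked how neferine acts on vessels under angiotensin II, a peptide hormone that constricts arteries. The labels give neither the age nor the sex of the mice and do not say how many mice went into a sample, and the tests see only the variation from sample to sample, which may be technical. The identity of the tissue could not be checked against marker genes because the identifiers were not paired with names.

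In an inflamed artery, Tnf and Il1b act on endothelial and smooth muscle cells through receptors that activate the transcription factor NF-kappaB. This raises transcription of Vcam1 and Icam1, which bind integrins on passing leukocytes, and of Ccl2, which attracts monocytes through the receptor Ccr2. Il6 is a further product of the same pathway and acts through the Jak and Stat3 route. Angiotensin II infusion is widely used to study this kind of vascular inflammation in mice.

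The values are abundance signals per transcript whose unit is not named, and the number of reads behind them is unknown. AngII replicate 6 stood apart from the other libraries. Its median Spearman rho with the others across the tested transcripts was 0.511, against 0.613 to 0.674 in those, and 16.1% of the tested transcripts were at 0 in it. It also held the highest value of all 17 libraries for 17.9% of the tested transcripts, where the median library held it for 5.60%. Total signal over the transcripts listed everywhere was 541055 in this library, 520776 in AngII replicate 2 and 567508 in neferine replicate 1. In the others it was 388538 to 444752. AngII replicate 2 held the lowest Icam1 of its group, and neferine replicate 1 the lowest Icam1 and Vcam1 of its group. The neferine files form a set of their own with other rows, so neferine treatment and file set cannot be told apart. In whole tissue, fewer cells that express a gene and less RNA of it per cell cannot be told apart either.

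No member passed the test in any comparison. Limma, fitted over all 29983 transcripts with a signal of at least 1 in at least 5 libraries and with Benjamini-Hochberg adjustment, gave adjusted p of 0.532 or more for Ccl2, Vcam1 and Icam1. The share of all tested transcripts called at an adjusted p under 0.05 was 0% for AngII against Control, 0% for neferine against AngII and 0.0367% for neferine against Control. At an unadjusted p under 0.05 the shares were 7.25%, 5.22% and 8.74%, and of these 3 members 0, 2 and 1 lay under it. Il1b reached 1 in 4 libraries and was therefore below this minimum, and its values come from the fit without a minimum over all 39614 transcripts, which called 0%, 0% and 0.0101%. Ccl2 reached 1 in 9 libraries, outside the neferine group only in Control replicates 1 and 4 and AngII replicates 2 and 3. It thus met the minimum only through its neferine libraries. In the fit without a minimum its adjusted p was 0.963, 0.918 and 0.616 (limma). The exact rank sum test called 0 transcripts in each comparison. With 5 or 6 libraries in a group its smallest possible p is so high that calls after adjustment over all transcripts were hardly possible. Nothing is concluded from that 0. In the plot of the values by library, the highest value of each of the 4 transcripts is in neferine replicate 4 or 6.

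**Figure D1:**
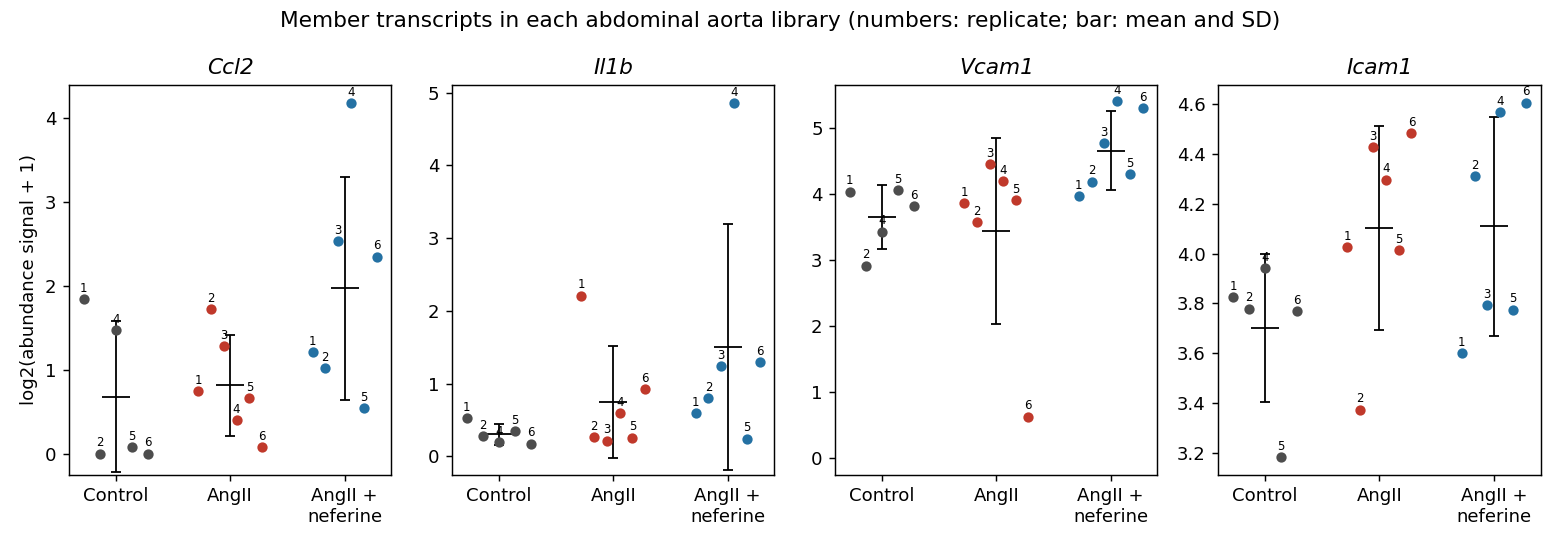
Abundance signal of the 4 listed transcripts as log2(signal + 1), each panel with its own vertical scale, in the 5 Control, 6 AngII and 6 neferine libraries. Points are libraries with their replicate number, and bars are the mean and SD of a group. Neferine replicate 4 is the highest point for Ccl2, Il1b and Vcam1 and the second highest for Icam1, and AngII replicate 6 lies far below all others for Vcam1.

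Ccl2, the chemokine that recruits monocytes, was low and uneven in Control. Its signal was 2.57 in replicate 1, 1.78 in replicate 4 and 0.0553 in replicate 5, and it was listed at 0 in replicates 2 and 6. In AngII it was 0.67, 2.30, 1.43, 0.317, 0.584 and 0.0538 in replicates 1 to 6. These 2 groups covered nearly the same range, and their means were 0.881 ± 1.21 (SD, n = 5) and 0.893 ± 0.831 (SD, n = 6). The log2 fold change of AngII against Control was 0.14 ± 0.57 (SE; limma, adjusted p = 0.967), with a 95% interval of -1.06 to 1.34. The difference of medians was 0.62 (exact permutation p = 0.446).

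With neferine, Ccl2 was 1.31, 1.02, 4.77, 16.99, 0.451 and 4.08 in replicates 1 to 6. Replicates 3, 4 and 6 lay above every library of the other groups, while replicates 1, 2 and 5 lay within the range of AngII. The mean was 4.77 ± 6.24 (SD, n = 6), and without replicate 4 it was 2.33 ± 1.95 (SD, n = 5). Ccl2 was higher with neferine than in AngII by 1.15 ± 0.54 (SE) on the log2 scale, a difference that did not pass (limma, adjusted p = 0.952), and a two-sided exact permutation test gave p = 0.0758. Without neferine replicate 4 the difference was 0.71 (limma, adjusted p = 0.991). Against Control the difference was 1.29 ± 0.57 (SE; limma, adjusted p = 0.532) and the exact permutation p was 0.0952, while the difference of medians was 1.70 (exact permutation p = 0.0411). Without replicate 4 the log2 fold change was 0.85 (limma, adjusted p = 0.682). A pseudocount of 0.1 in place of 1, which gives more weight to values near 0, made it 2.78 (limma, adjusted p = 0.478), and made the differences of neferine from AngII and of AngII from Control 1.88 (limma, adjusted p = 0.946) and 0.90 (limma, adjusted p = 0.856).

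Il1b, the interleukin that myeloid cells release on activation, was lower and more even in Control than in the other groups. Its 5 Control values were 0.442, 0.209, 0.143, 0.276 and 0.131 in replicates 1, 2, 4, 5 and 6. The AngII values were 3.63, 0.203, 0.164, 0.514, 0.197 and 0.902 in replicates 1 to 6. AngII replicate 1 was thus the only library of these groups above 1. The AngII mean was 0.934 ± 1.35 (SD, n = 6), and without replicate 1 it was 0.396 ± 0.317 (SD, n = 5). Since the Control mean was 0.240, the transcript would fall under the mean of 0.5 seen in all listed transcripts of these groups without that 1 library. The log2 fold change of AngII against Control was 0.44 ± 0.63 (SE; limma without a minimum, adjusted p = 0.877), and without AngII replicate 1 it was 0.15 (limma without a minimum, adjusted p = 0.955). The difference of medians was 0.16 (exact permutation p = 0.413). With a pseudocount of 0.1 the log2 fold change was 0.93 (limma without a minimum, adjusted p = 0.847).

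With neferine, Il1b was 0.505, 0.736, 1.36, 27.9, 0.184 and 1.46 in replicates 1 to 6. Replicate 5 was within the Control range, and all the others were above every Control library, but replicate 4 alone exceeded the highest AngII value. The mean of 5.36 ± 11.1 (SD, n = 6) became 0.848 ± 0.548 (SD, n = 5) without replicate 4. The difference from AngII was 0.76 ± 0.60 (SE; limma without a minimum, adjusted p = 0.918) and was 0.09 without replicate 4 (limma without a minimum, adjusted p = 0.985). The difference from Control was 1.20 ± 0.63 (SE; limma without a minimum, adjusted p = 0.697), with an exact permutation p of 0.0519, and the difference of medians was 0.74 (exact permutation p = 0.0931). The log2 fold change was 0.53 without replicate 4 (limma without a minimum, adjusted p = 0.806), with an unadjusted exact permutation p of 0.0397. A pseudocount of 0.1 made the differences from AngII and from Control 1.23 (limma without a minimum, adjusted p = 0.928) and 2.16 (limma without a minimum, adjusted p = 0.629).

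Vcam1, which binds the integrin VLA-4 on monocytes and lymphocytes, had a signal of at least 6.56 in all libraries but 1. The Control values were 15.5, 6.56, 9.81, 15.8 and 13.1 in replicates 1, 2, 4, 5 and 6. In AngII replicates 1 to 5 the signal was 13.6, 10.98, 21.0, 17.5 and 14.1, and in AngII replicate 6, the library that stood apart, it was 0.546. The AngII mean was 13.0 ± 7.002 (SD, n = 6) with that library and 15.4 ± 3.89 (SD, n = 5) without it, against 12.2 ± 3.94 (SD, n = 5) in Control. The log2 fold change of AngII against Control changed sign with it, from -0.21 ± 0.54 (SE; limma, adjusted p = 0.941) to 0.35 ± 0.30 (SE; limma, adjusted p = 0.866) when it was left out. With all libraries, a pseudocount of 0.1 made it -0.38 (limma, adjusted p = 0.908), and the difference of medians was 0.0693 (exact permutation p = 0.779).

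With neferine, Vcam1 was 14.7, 17.3, 26.4, 41.8, 18.8 and 38.6 in replicates 1 to 6. Replicates 3, 4 and 6 lay above every AngII library, and 5 of the 6, all but replicate 1, lay above every Control library. The mean was 26.3 ± 11.5 (SD, n = 6). The difference from AngII was 1.22 ± 0.52 (SE) on the log2 scale, with a 95% interval of 0.13 to 2.31, and did not pass (limma, adjusted p = 0.938). The exact permutation test gave p = 0.0325. The difference of medians was 0.65 (exact permutation p = 0.0455). Without AngII replicate 6 the difference was 0.66 ± 0.29 (SE; limma, adjusted p = 0.906) and the exact permutation p was 0.0693. With all libraries and with library weights, which limma sets lower for libraries that fit its model less closely, it was 0.76 (limma, adjusted p = 0.682).

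Against Control, Vcam1 differed with neferine by 1.01 ± 0.54 (SE; limma, adjusted p = 0.632), with an exact permutation p of 0.0152. The difference of medians was 0.72 (exact permutation p = 0.0606). AngII replicate 6 bears on this comparison through the spread that all groups share in the fit. Without it the estimate was 1.01 again, with an SE of 0.29 (limma, adjusted p = 0.209). When neferine replicate 1 and AngII replicates 2 and 6 were all omitted it was 1.14 ± 0.28 (SE; limma, adjusted p = 0.110). Over all alternatives this adjusted p lay between 0.110 and 0.786 and never passed.

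**Figure D2:**
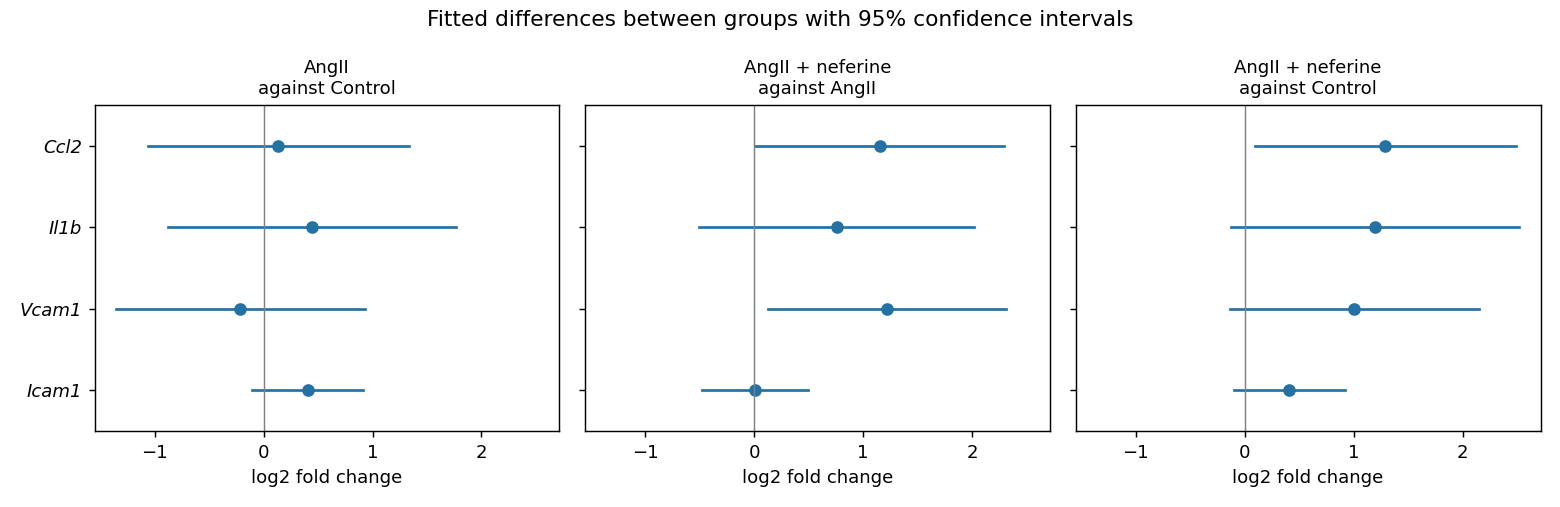
Log2 fold changes on the log2(signal + 1) scale (points) with their 95% confidence intervals (lines) from limma, for the 3 comparisons, with Il1b from the fit without a minimum signal. For Icam1 the interval of neferine against AngII runs from -0.48 to 0.49, while those of Ccl2 and Vcam1 run from 0.01 to 2.30 and from 0.13 to 2.31. The intervals are not adjusted for the number of transcripts, and the adjusted p of these 2 differences was 0.952 and 0.938 (limma). Without neferine replicate 4 their intervals run from -0.25 to 1.67 and from -0.09 to 2.22.

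Icam1, the ligand of the leukocyte integrins LFA-1 and Mac-1, varied least of the 4. Its coefficient of variation over the 17 libraries was 30.0%, against 59.1% for Vcam1, 179% for Ccl2 and 291% for Il1b. The median over all tested transcripts was 61.9%. In Control the values were 13.2, 12.7, 14.4, 8.08 and 12.6 in replicates 1, 2, 4, 5 and 6, and in AngII they were 15.3, 9.36, 20.5, 18.7, 15.2 and 21.4 in replicates 1 to 6. Thus 5 of the 6 AngII libraries, all but replicate 2, lay above every Control library. The means were 12.2 ± 2.40 (SD, n = 5) and 16.7 ± 4.44 (SD, n = 6), a log2 fold change of 0.40 ± 0.24 (SE; limma, adjusted p = 0.752) with an exact permutation p of 0.0974. AngII replicate 6, where Vcam1 was lowest, had the highest Icam1 value of its group, and without it the log2 fold change was 0.33 (limma, adjusted p = 0.843). The log2 fold change moved further without Control replicate 5, to 0.27 (limma, adjusted p = 0.889), and without AngII replicate 2, to 0.55 (limma, adjusted p = 0.656). With libraries scaled to equal totals it was 0.30 (limma, adjusted p = 0.822).

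With neferine, Icam1 was 11.1, 18.9, 12.9, 22.7, 12.7 and 23.4 in replicates 1 to 6. Replicates 4 and 6 lay above every AngII library, and replicates 1, 3 and 5 were within the range of Control. The mean of 16.9 ± 5.41 (SD, n = 6) differed from that of AngII by 0.01 ± 0.23 (SE) on the log2 scale (limma, adjusted p = 0.998). The 95% interval was -0.48 to 0.49, so a difference of more than 0.49 in either direction lies outside it. A difference as large as the 0.40 of AngII against Control lies inside it in either direction. Against Control the difference was 0.41 ± 0.24 (SE; limma, adjusted p = 0.671) and the exact permutation p was 0.115.

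Because the unit is unknown, the levels of the members are not ranked against each other. By the means of the linear signal, the groups were ordered Control, AngII, neferine for each of the 4. This order did not hold throughout with 1 library left out. Without neferine replicate 4 the neferine means of Il1b and Icam1, 0.848 and 15.8, lay below the AngII means of 0.934 and 16.7. For Ccl2 the means of Control and AngII were 0.881 and 0.893, and without AngII replicate 2 the AngII mean was 0.612. By the means of log2(signal + 1) Vcam1 was lower in AngII than in Control, and by the medians Icam1 was lower with neferine, at 15.9, than in AngII, at 16.97. The means of Control and AngII differed by less than the AngII SD for Ccl2, Vcam1 and Il1b. For Icam1 they differed by slightly more than it, and the means of AngII and neferine differed by less than either group's SD. The means of neferine and AngII differed by less than the neferine SD for Ccl2 and Il1b and by more than it for Vcam1. Without AngII replicate 6 the Vcam1 means of 26.3 and 15.4 also differed by less than the neferine SD.

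Neferine replicates 4 and 6 were among the 3 highest of all 17 libraries for all 4 members, and replicate 3 was among them for Ccl2 and Vcam1. Neferine replicate 5 had the lowest Ccl2 and Il1b of its group. Neferine replicate 4 did not stand out over the tested transcripts, of which it held the highest value for 5.36%, and its median Spearman rho with the other libraries was 0.657. Its Ccl2 value was 12.9 times the median of the other neferine libraries, and 2.16% of the 29113 transcripts compared had a ratio at least as high. For Il1b the ratio was 37.9, which 1.07% reached. For Vcam1 and Icam1 the ratios were 2.22 and 1.77, reached by 11.7% and 16.6%. Il1b itself did not reach the minimum signal of the transcripts compared. This library held the highest Ccl2, Il1b and Vcam1 of all, so these shares are descriptive and not a test.

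**Figure D3:**
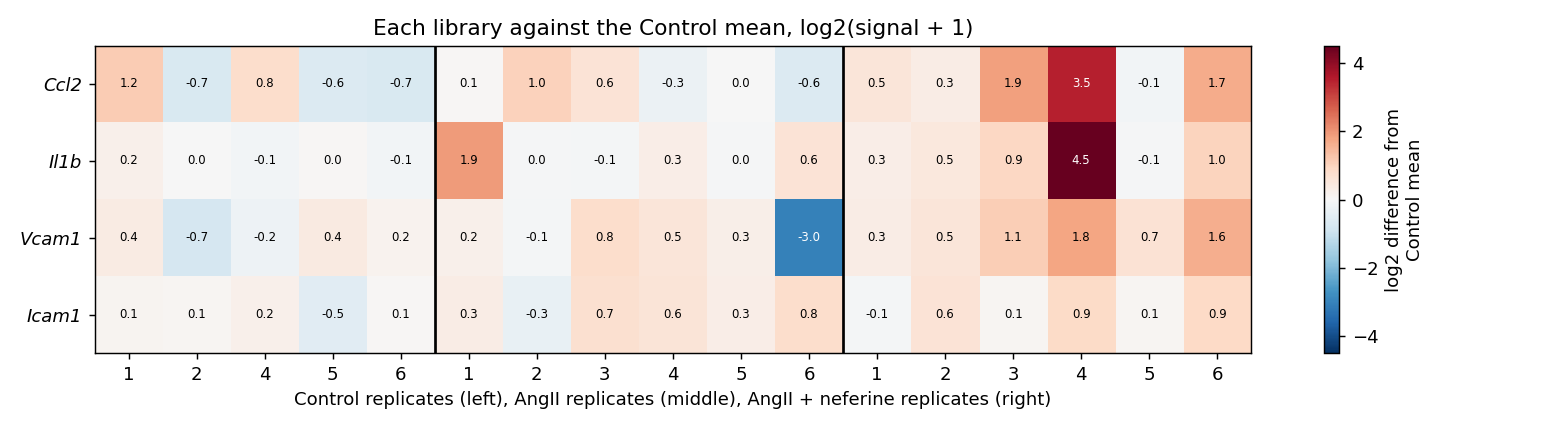
Difference of each library from the Control mean on the log2(signal + 1) scale for the 4 transcripts (rows), with the libraries as columns in their 3 groups and the colour and number giving the difference. Neferine replicates 4 and 6 are above the Control mean in all 4 rows, and the low value of AngII replicate 6 is seen in Vcam1. For Ccl2 that library is near Control replicates 2, 5 and 6.

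Relations between members were computed over the 17 libraries for the 6 pairs. Permutations over libraries of several groups ignored the groups, so a group shift shared by both members of a pair enters r and p. Ccl2 and Il1b gave Pearson's r = 0.705 (permutation p = 0.00913, Benjamini-Hochberg adjusted over the 6 relations 0.0548) and Spearman's rho = 0.380 (permutation p = 0.133, adjusted 0.197). Without the 2 libraries farthest from the median of Ccl2, neferine replicates 3 and 4, r was 0.152 (permutation p = 0.607). It was 0.269 without replicate 4 alone (permutation p = 0.322) and 0.719 without replicate 3 alone (permutation p = 0.0187), so the relation rests on neferine replicate 4. Ccl2 and Vcam1 gave r = 0.607 (permutation p = 0.0218, adjusted 0.0653) and rho = 0.558 (permutation p = 0.0213, adjusted 0.125), and r was 0.484 without the same libraries (permutation p = 0.0573). The other 4 pairs gave r between 0.08 and 0.466, with adjusted permutation p of 0.104 or more.

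Values within each set of files are given side by side, and whether the relations differ between the sets was not tested. Within the 6 neferine libraries r was 0.919 for Ccl2 and Il1b (exact permutation p = 0.00556) and 0.860 for Ccl2 and Vcam1 (exact permutation p = 0.0333). For Vcam1 and Il1b it was 0.742 (exact permutation p = 0.00972). Spearman's rho for these pairs was 0.886 (exact permutation p = 0.0333), 0.714 (exact permutation p = 0.136) and 0.829 (exact permutation p = 0.0583). The p values within a set of files were not adjusted over the 6 pairs. Relations within the neferine libraries were not computed without replicate 4. The 3 pairs with Icam1 gave 0.578 with Ccl2 (exact permutation p = 0.193), 0.608 with Il1b (exact permutation p = 0.113) and 0.757 with Vcam1 (exact permutation p = 0.118). Within the 11 Control and AngII libraries r was -0.0887 for the first pair (permutation p = 0.869) and 0.346 for the second (permutation p = 0.338). For Vcam1 and Icam1, r over all 17 libraries was 0.0796 (permutation p = 0.771), and without AngII replicate 6 it was 0.593 (permutation p = 0.0150).

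**Figure D4:**
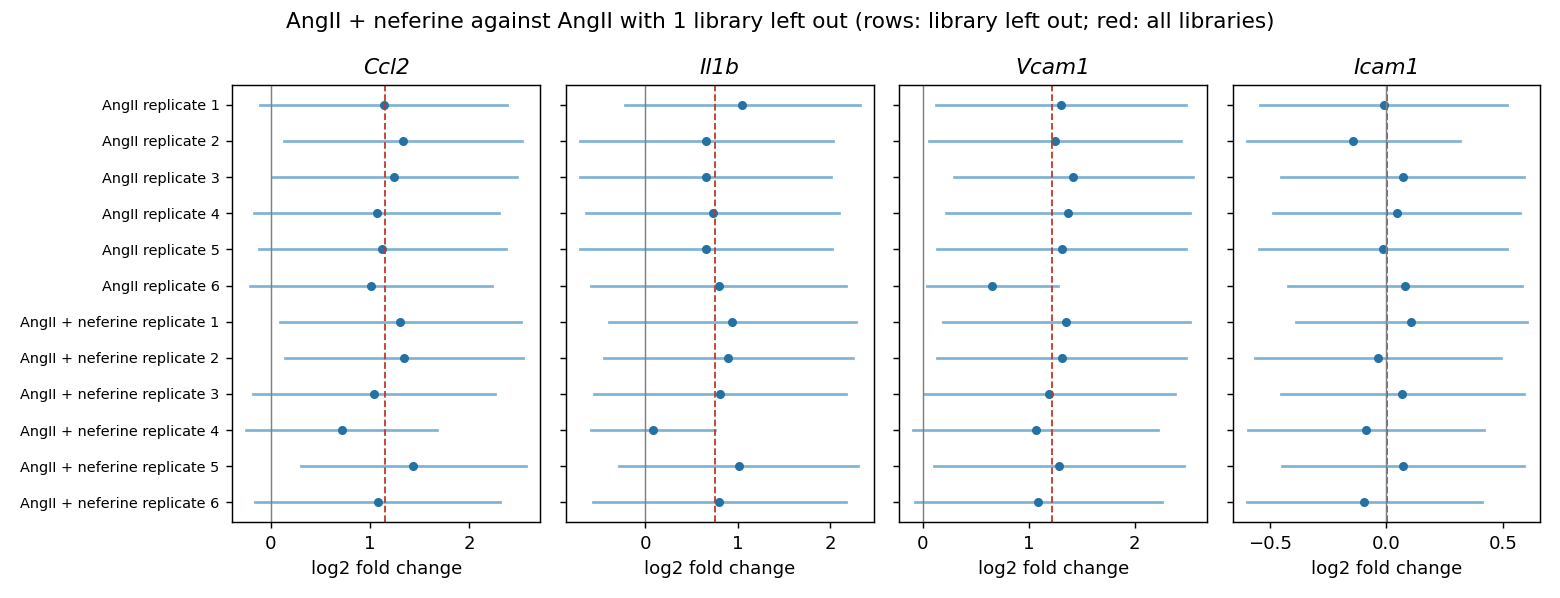
Log2 fold change of neferine against AngII (points) with its 95% confidence interval (lines) when the library named at the left is omitted, for each transcript on its own horizontal scale. The dashed line is the value with all libraries. The estimate for Vcam1 moves most without AngII replicate 6, to 0.66, and those for Ccl2 and Il1b without neferine replicate 4, to 0.71 and 0.09.

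Among the 29980 other tested transcripts, the one most like Vcam1 was ENSMUST00000029476, with r = 0.931 over the 17 libraries. Its signal spanned 20.8 to 24.3 in Control, 13.8 to 24.0 in AngII and 21.0 to 29.0 in the neferine group. The one most like Il1b was ENSMUST00000063062, with r = 0.896. It spanned 0.0922 to 1.30 in Control, 0.405 to 3.20 in AngII and 0.143 to 12.4 in the neferine group. Neither identifier is paired with a gene name in the sources used here. Each r is the highest of the 29980 compared, and for Vcam1 10 transcripts had an r over 0.9. The low Vcam1 of AngII replicate 6 and the high Il1b of neferine replicate 4 enter these values. No r without these libraries was computed.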

How the data were processed

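RNA of 17 abdominal aorta samples was depleted of ribosomal RNA and sequenced, per the labels' protocols. Each deposited file holds 1 sample, with a linear abundance signal for each transcript, whose unit the authors do not name per the file headers. For aligner, quantification tool and genome build, the entry is: not given in the sources used here. Limma is named without version or role in the submitters' processing notes. The column totals, 392615 to 569873, differ from those of full TPM tables, and the files hold no counts, so depth is unknown and no counting interval was computed.

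Members were found by identifier, and they, the lists and the tests were chosen with earlier results of these data known. Limma 3.58.1 (R 4.3.3) was run on log2(value + 1) (trended, robust moderation) in 1 fit of all 17 libraries, without covariates, over 29983 transcripts that reached 1 in 5 libraries or more, and Benjamini-Hochberg adjustment over all of them. Fold changes on this scale understate changes of low transcripts. Permutation tests, two-sided and of the difference of means of log2(value + 1) unless medians are named, used every arrangement. The smallest possible p was 0.00216 for means with all libraries, and higher for medians and with 5 libraries in both groups. The permutation tests with all libraries comprised 12 tests for means and 12 for medians, with p not adjusted. Permutation tests with libraries left out were added to these and not adjusted either. Correlations used 100000 resamples, or all orders for 6 libraries. For AngII against Control the limma fit was also run on simulated normal values. These were drawn independently for each library, unlike data with outlying libraries. No gene list or cell type marker could be tested, since 0 transcript identifiers of the files were found in the RefSeq gene table (GRCm38.p6), and no sequence or coordinates are given. Beside the members, the rule named the transcript with the highest r to the member with the highest mean signal (Vcam1, a criterion of choice and not a ranking of levels) and to the one with the highest coefficient of variation (Il1b). Alternatives were another pseudocount, filters, scalings, library weights, a replicate block, fits of 2 groups, the exact rank sum test and leaving out libraries. The design provided for members listed only with Control and AngII, of which there were 0.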

Additional observations from a re-analysis of the deposited data

Results flagged for a closer look

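Dixon's ratio, the gap of the highest or lowest library to its neighbour over the range of the group, was computed on the linear signal for 12 groups of values (4 transcripts in 3 groups of 5 or 6 libraries). In 4 of them 1 library lay past the 95% critical value. The rate of about 5% by chance holds for normally distributed values, and the linear signals with neferine had a coefficient of variation of 131% for Ccl2 and 206% for Il1b, so it is not applied here. On log2(value + 1), a scale added after the values were seen, 4 groups were past it as well, 3 of them the same. Ccl2 in neferine replicate 4 was 16.99, and the next neferine value was 4.77, with a ratio of 0.739 on the linear scale and 0.452 on the log2 scale, where it no longer passed the critical value of 0.625. Il1b in the same library was 27.9, with 1.46 next, and passed on both scales. Il1b in AngII replicate 1 was 3.63, with 0.902 next, and passed on both scales, while Ccl2 of that library, 0.67, lay within the range of its group. Icam1 in Control replicate 5 was 8.08, below the next Control value of 12.6, and passed on both scales, while its Vcam1 of 15.8 was the highest of Control. The Vcam1 value of 0.546 in AngII replicate 6 passed on the log2 scale, with a ratio of 0.771, and not on the linear scale, with a ratio of 0.509.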

How the results depend on the processing

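In 354 alternative values of the members none passed an adjusted p under 0.05 by limma or the exact rank sum test, which could hardly call any transcript. Differences of medians carry no adjusted p. Neither do the values without both AngII replicate 6 and neferine replicate 4, a choice made after seeing the data. The sign changed in 17 of the 354 values, for 3 differences whose main value was smaller than its SE. Vcam1 in AngII against Control became 0.29 with library weights, 0.0693 as a difference of medians, 0.46 without AngII replicates 2 and 6 and neferine replicate 1, and 0.35 without AngII replicate 6 and neferine replicate 4, and ran from -0.42 to 0.35 with 1 library left out. Icam1 in neferine against AngII became -0.11 as a difference of medians and -0.0101 without AngII replicate 6 and neferine replicate 4, and ran from -0.14 to 0.11 with 1 library left out. Ccl2 in AngII against Control ran from -0.0459 to 0.43 with 1 library left out. Within the Control and AngII libraries r was -0.0546 for Ccl2 and Icam1, -0.0887 for Ccl2 and Il1b, -0.30 for Vcam1 and Icam1 and -0.153 for Vcam1 and Il1b. With 1 library left out r of Vcam1 and Icam1 ran from -0.0596 to 0.593.

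Over all transcripts, calls for AngII against Control, neferine against AngII and neferine against Control were 7, 2 and 26 in fits of 2 groups, 6, 3 and 63 with library weights, and 6, 15 and 106 when neferine replicate 1 and AngII replicates 2 and 6 were omitted. They ranged from 0 to 12, 0 to 11 and 0 to 31 with 1 library left out, the highest each time without AngII replicate 6, and the last comparison had 0 without Control replicate 2, 4 or 5 or neferine replicate 2. For neferine against Control there were 4 without a filter, 2 with libraries scaled to equal totals, and 0 with the exact rank sum test, which could hardly call any. The replicate block gave 0 calls in this comparison. Deviations of same-numbered libraries correlated between -0.147 and 0.064 in 16 pairs, so the numbers were not taken to pair the samples. The causes were not tested. The signals have no known depth, so values near 0, such as those of Ccl2 and Il1b, have no known precision.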

Other observations

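The ratio of Vcam1 to Icam1 within a library does not change when a library is scaled by a common factor. It was computed after the values were seen and is given without a test, and its size has no meaning between transcripts of unknown unit. It lay between 0.917 and 2.05 with neferine (median 1.57, n = 6), between 0.0255 and 1.17 in AngII (median 0.932, n = 6) and between 0.515 and 1.95 in Control (median 1.04, n = 5). With neferine 5 of 6 libraries, all but replicate 2, were above every AngII library, while Control spanned nearly the whole range of the neferine group. AngII replicate 6 held the lowest ratio, and the other 5 AngII libraries lay between 0.891 and 1.17.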
